A study of Homo sapiens with 8 samples.

Results

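The genes described here are interferon-stimulated genes with their STAT and IRF regulators, measured by RNA sequencing in the esophageal squamous carcinoma cell line KYSE150. They were taken by symbol from a list of 43 genes, by a rule that uses no measured value, though the list was drawn up with earlier results of these data known. Of these, 42 of the 15852 genes in the count table were matched by symbol, and 37 of them were among the 11841 genes with enough counts to be tested. The study compared 4 control libraries with 4 libraries of cells carrying a short hairpin RNA against BOLA3-L, an isoform of the mitochondrial iron-sulfur protein BOLA3. No library had a further treatment per the labels, and none is labelled as treated with interferon. The hairpin sequence, the vector and the clonal state of the cells are not stated. It is also not stated that replicates came from different cultures, and p-values therefore measure only the spread between these libraries, which may be technical.

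Type I and type III interferons act through their receptors on the kinases JAK1 and TYK2, which phosphorylate STAT proteins. STAT2 and IRF9 are subunits of the complex ISGF3, which binds the interferon-stimulated response element (ISRE) in the promoters of its targets. The targets sense or degrade foreign RNA, block translation or entry of viruses and attach the ubiquitin-like protein ISG15 to other proteins, and several of them, such as USP18, restrain the pathway again. A basal level of many of these genes is kept without added interferon.

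The promoters shown next are those of the 4 called members with the largest changes among those that hold an ISRE core, to let the element be read beside the values. The ISRE core was searched as GAAANNGAAA on both strands, so that it reads TTTCNNTTTC on the other strand, in the 250 bases before the RefSeq start of each gene in GRCh38.p14. Of the 37 members with a RefSeq promoter 20 held the core (54.1%), against 839 of 27305 promoters (3.07%). OAS2, OASL, IFIT2, USP18 and IFITM2 had no promoter entry. Capitals mark the core, and each sequence runs 5′ to 3′ on the strand of its gene, with the start site directly after its last base.
IFI44: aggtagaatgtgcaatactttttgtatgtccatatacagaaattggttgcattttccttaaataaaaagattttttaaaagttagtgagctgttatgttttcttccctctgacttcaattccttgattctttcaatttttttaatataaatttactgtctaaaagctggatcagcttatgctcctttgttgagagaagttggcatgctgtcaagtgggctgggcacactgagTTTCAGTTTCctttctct
SAMD9: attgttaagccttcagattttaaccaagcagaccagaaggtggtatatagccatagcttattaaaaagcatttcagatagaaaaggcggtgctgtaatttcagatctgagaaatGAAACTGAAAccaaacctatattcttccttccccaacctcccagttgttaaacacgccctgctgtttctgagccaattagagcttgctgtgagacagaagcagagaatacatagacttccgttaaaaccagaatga
OAS3: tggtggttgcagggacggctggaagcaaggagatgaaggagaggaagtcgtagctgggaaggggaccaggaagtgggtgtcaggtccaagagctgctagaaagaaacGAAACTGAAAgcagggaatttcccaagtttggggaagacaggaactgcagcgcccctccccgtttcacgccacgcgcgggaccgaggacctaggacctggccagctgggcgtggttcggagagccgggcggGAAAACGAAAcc
IFIT1: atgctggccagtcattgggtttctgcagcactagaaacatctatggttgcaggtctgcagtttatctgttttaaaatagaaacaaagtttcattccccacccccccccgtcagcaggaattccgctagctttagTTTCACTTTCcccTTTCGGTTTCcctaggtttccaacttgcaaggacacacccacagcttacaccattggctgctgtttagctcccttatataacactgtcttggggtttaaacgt
The 4 windows lie at chr1:78649539-78649788 on the plus strand (IFI44), chr7:93117980-93118229 on the minus strand (SAMD9), chr12:112938224-112938473 on the plus strand (OAS3) and chr10:89392373-89392622 on the plus strand (IFIT1). In IFI44 the core began 18 bases before the start and in SAMD9 136 bases before it. OAS3 held a core at 143 and another at 12 bases before the start, and IFIT1 held its pair at 116 and 103 bases.

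BOLA3 itself fell to 31.7% of control, from 19.1 to 21.8 CPM (counts scaled to the TMM-normalized library total) in the control libraries to 6.06 to 7.29 CPM after knockdown (log2 change -1.66, SE 0.0821; exact two-sided permutation test p = 0.0286, the smallest that 70 assignments allow). The counts cover all transcripts of the gene, so the L isoform was not measured on its own. The library totals lay between 31178036 and 35147860 counts, where 3 counts equal 0.0854 to 0.0962 CPM. BOLA3-L knockdown replicate 1 stood apart from the other knockdown libraries on the second principal component (20.1 against -10.1 to -4.81, 14.4% of the variance). The 8 squamous epithelial markers summed to 4440.2 to 4452 CPM in controls and 2879 to 3143 CPM after knockdown. KRT5 made up most of this sum, with means of 3132 CPM in controls and 1936 CPM after knockdown. Of the 8 markers 7, KRT5 and TP63 among them, fell, while EPCAM rose (log2 change 0.21, adjusted p 0.000419). Markers of leukocytes, which carry much of the interferon response in tissue, summed to 0.588 to 1.26 CPM in each library over the 8 analysed, with PTPRC at 0 to 5 counts, while fibroblast markers summed to 9.94 to 14.8 CPM in controls and 4.53 to 7.26 CPM after knockdown, nearly all of it COL1A1, with DCN at 0 to 2 counts, and endothelial markers to 1.00 to 1.91 CPM in controls and 1.96 to 2.56 CPM after knockdown, with PECAM1 at 0 or 1 count and CDH5, which made up most of the sum, higher after knockdown (0.993 and 1.71 CPM; log2 change 0.79, adjusted p 0.0120). The part of these differences in the results below was not tested.

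After knockdown 5 of the 37 tested members rose, namely USP18, HERC6, OAS3, PARP14 and IFITM3, and 8 fell, namely IFI44, TRIM21, SAMD9, SP100, IRF9, IFIT1, STAT2 and TRIM25. In percent, 13.5% of tested members rose, where 15.0% of all tested genes did, and 21.6% fell, where 15.6% of all tested genes did. Groups of members and of pathway genes by role, given below, hold 3 to 17 tested genes. Their counts were not tested against these shares. A call is an adjusted p under 0.05 in edgeR's quasi-likelihood test over all tested genes. The change of IFI44 was at least 2-fold, and those of the other 12 called members lay between -0.45 and 0.44 on the log2 scale. The median log2 change was -0.04 over the tested members and 0.00142 over all tested genes, with a median absolute change of 0.15 against 0.11.

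In 5 members every knockdown library lay above every control (13.5%, background 14.6%) and in 8 every knockdown library lay below (21.6%, background 15.6%). The 8 below were the 8 members that fell, and the 5 above were OAS3, PARP14, IFITM3, IFIH1 and UBE2L6, of which the last pair did not pass the test. In bulk RNA a change in the number of responding cells and a change in RNA per cell cannot be told apart. Without BOLA3-L knockdown replicate 1, 5 members rose and 9 fell, 4 and 8 of them shared with the calls above, and 21.2% and 21.5% of all tested genes rose and fell. Without control replicate 1, 3 members rose, where 12.1% of all tested genes did, and without control replicate 3, 5 fell, where 12.4% did.

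**Figure D1:**
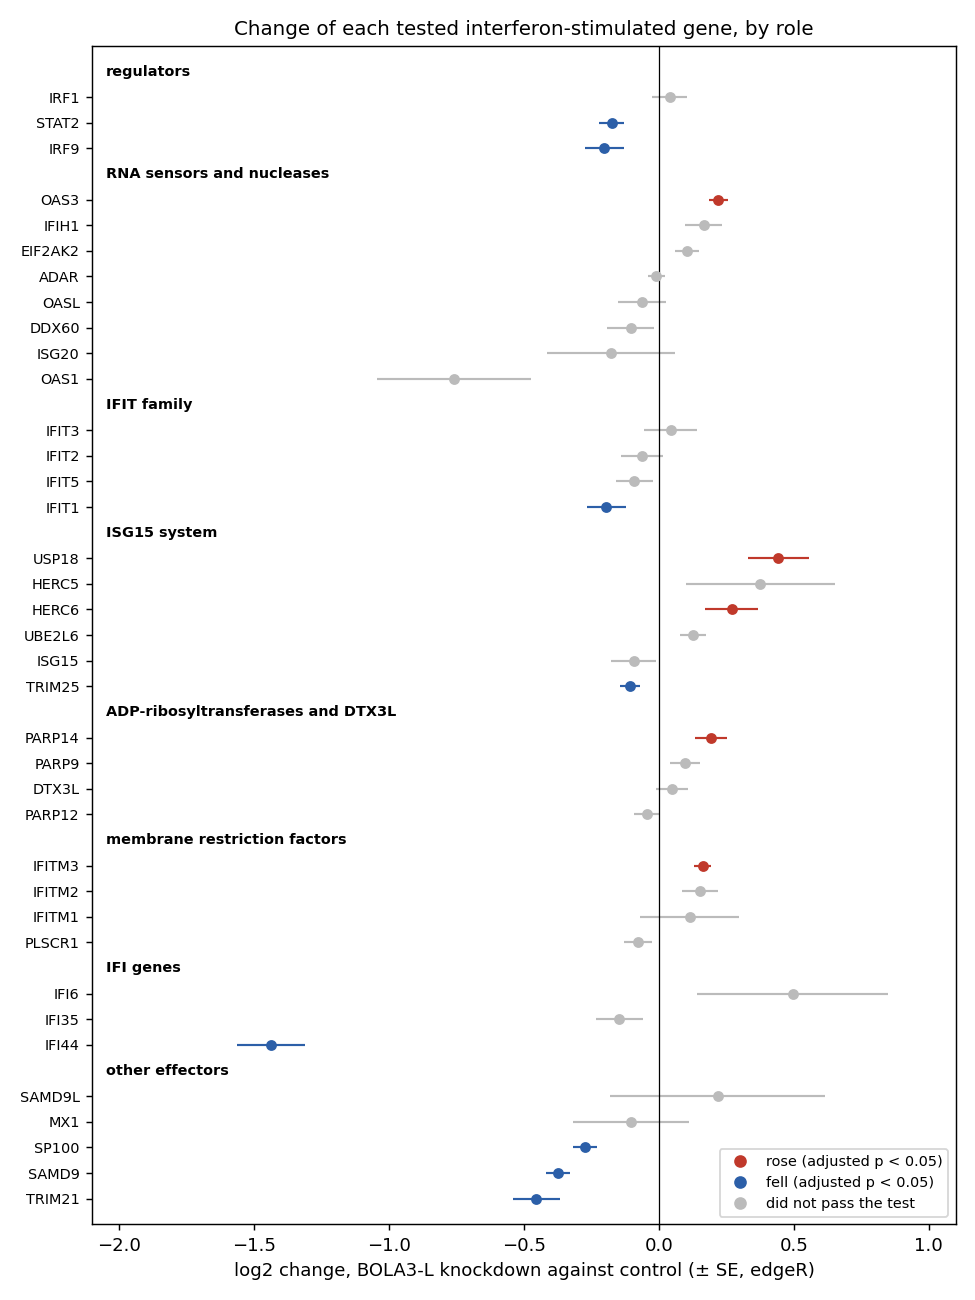
Log2 change of each of the 37 tested members after BOLA3-L knockdown, with its SE from edgeR over 4 against 4 libraries, grouped by role. The horizontal axis is the log2 change, and red, blue and grey mark members that rose, that fell and that did not pass the test. IFI44 at -1.44 lies apart from the other called members, which lie between -0.45 and 0.44.

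Members ranged over several orders of magnitude in level, which FPKM, a count scaled to gene length and library total, allows to compare between genes. In controls 14 members stood at 10 FPKM or more, 17 between 1 and 10 FPKM and 11 under 1 FPKM. IFITM3, a membrane protein that blocks entry of viruses, was the most abundant at 1029.7 ± 14.5 FPKM (SD, n = 4). Next came the RNA-editing enzyme ADAR at 60.9 ± 1.07 FPKM, the ISG15-conjugating enzyme UBE2L6 at 37.7 ± 0.762 FPKM and the ubiquitin ligase TRIM25 at 29.4 ± 0.333 FPKM (SD, n = 4 each). The control ranges of these 4 did not overlap each other or the next gene. SAMD9, IFITM2 and ISG15 followed at 26.0, 25.1 and 24.3 FPKM, and neighbours among them overlapped in range.

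At the low end stood some of the genes often used as readouts of an interferon response. The dynamin-like GTPase MX1 was at 0.212 ± 0.0395 FPKM, IFI6 at 0.644 ± 0.361 FPKM and OAS1 at 0.251 ± 0.0640 FPKM in controls (SD, n = 4 each). Other such genes stood higher, among them ISG15 at 24.3 FPKM and IFIT1 at 2.98 FPKM in controls. OAS2, BST2, IFI27, IFI44L and XAF1 had too few counts to be tested. Their counts per library ran from 1 to 8 for OAS2, 2 to 12 for BST2, 0 to 8 for IFI27 and 0 to 2 for IFI44L. XAF1 had 0 or 1 count in each control library and 0 in every knockdown library, which allows up to 0.0854 to 0.0962 CPM. Differences in these 5 were not detectable at this depth.

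**Figure D2:**
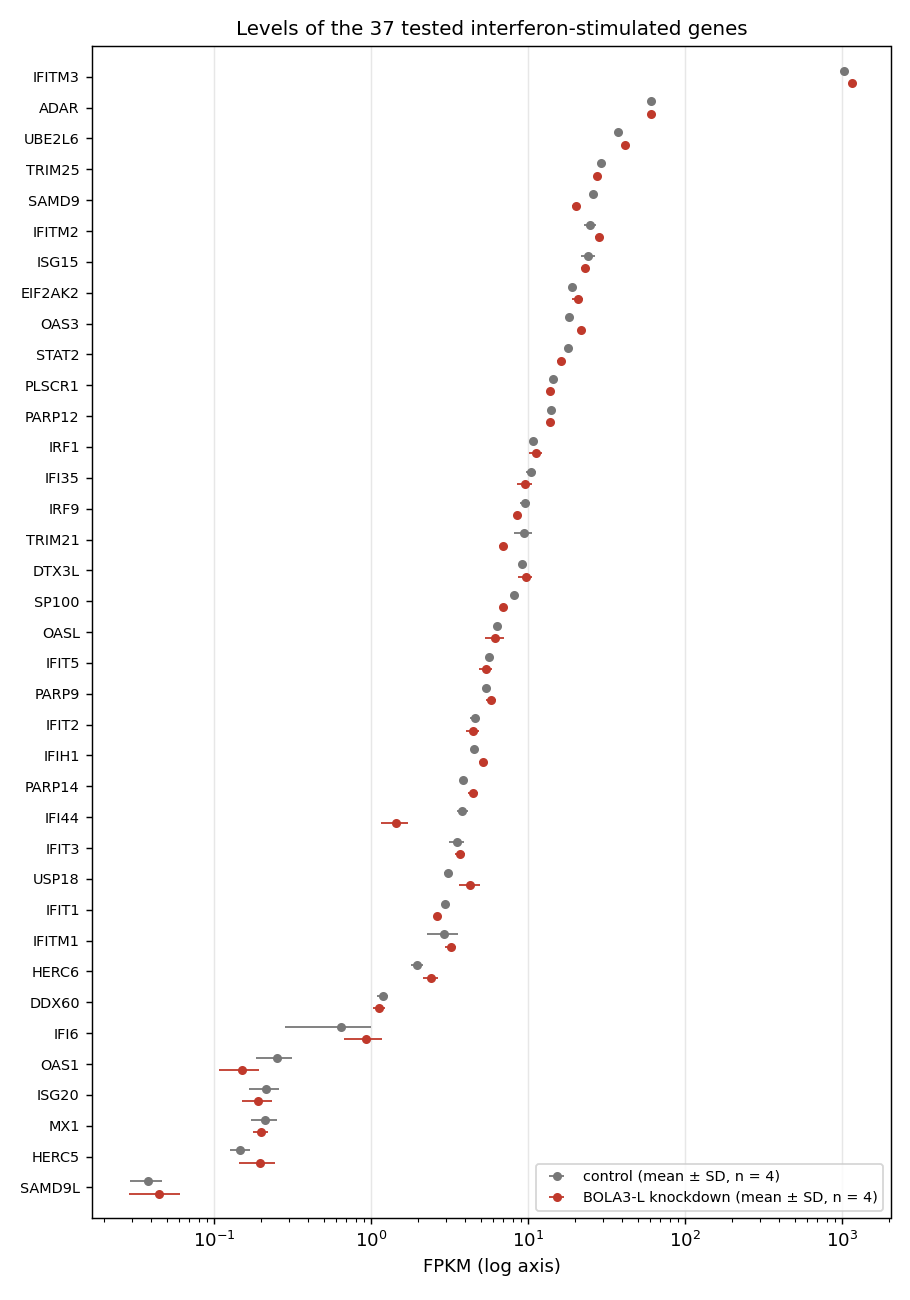
Level of each tested member in FPKM on a log axis, as the mean and SD of 4 control libraries (grey) and 4 BOLA3-L knockdown libraries (red), ordered by the control mean. The genes run from IFITM3 at 1029.7 FPKM to SAMD9L at 0.0380 FPKM in controls, and IFI44 shows the widest gap between the groups among called members.

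Among the 3 tested regulators STAT2 and IRF9, subunits of ISGF3, both fell, where 15.6% of all tested genes did. STAT2 stood at 84.1, 88.5, 88.6 and 83.4 CPM in the controls, given here and below in the order of replicates 1 to 4, and 73.7, 73.05, 81.1 and 77.6 CPM after knockdown. Every knockdown library was below every control, by a log2 change of -0.17 (SE 0.0456, adjusted p 0.00713). IRF9 stood at 16.5, 18.25, 18.3 and 16.05 CPM in controls and 14.7, 15.7, 14.4 and 15.2 CPM after knockdown (log2 change -0.20, SE 0.0710, adjusted p 0.0378). The groups did not overlap, but the call was lost on leaving out either control replicate 2 or 3, or knockdown replicate 3 or 4 (adjusted p 0.0590 to 0.123; 0.0276 to 0.123 over all alternatives). It was also lost with no filter on low counts (0.0561) and with limma on FPKM with no minimum (0.0533). All sampled sequence of IRF9 is shared with an overlapping readthrough gene annotated in GENCODE v29, AL136295.5, so its counts cannot be assigned to IRF9 alone.

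IRF1, a factor induced chiefly by interferon gamma, did not pass the test. It stood at 37.4, 41.2, 39.5 and 37.96 CPM in controls and 34.97, 42.6, 39.3 and 43.7 CPM after knockdown, with the knockdown libraries on both sides of the controls (log2 change 0.04, adjusted p 0.673).

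Of 8 tested RNA sensors and nucleases 1 rose (12.5%) and 0 fell in edgeR's test, where 15.0% and 15.6% of all tested genes did. In DESeq2 and limma 0 fell too, and 1, OAS1, fell at an unadjusted p under 0.05 in edgeR's test. OAS3, which makes the short oligoadenylates that activate RNase L, stood at 124, 126, 122 and 119 CPM in controls and 143, 139.7, 144 and 145 CPM after knockdown. All knockdown libraries were higher, and the log2 change was 0.22 (SE 0.0368, adjusted p 0.000174), kept under all 17 alternatives. IFIH1, which encodes the double-stranded RNA sensor MDA5, stood at 16.6, 17.3, 16.4 and 15.7 CPM in controls and 19.4, 17.8, 17.4 and 19.4 CPM after knockdown. Its groups did not overlap either, but the difference missed the threshold (log2 change 0.17, adjusted p 0.0711) and passed it with limma on FPKM (adjusted p 0.0315 to 0.0441).

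EIF2AK2, the kinase PKR that halts translation on double-stranded RNA, had log2 change 0.11 (adjusted p 0.0897), with its highest value, 229 CPM, in BOLA3-L knockdown replicate 1, and passed on leaving out knockdown replicate 4 (adjusted p 0.0423). ADAR, which edits such RNA, stood at 429 ± 7.58 and 426 ± 7.88 CPM (SD, n = 4 each), a difference smaller than the spread between replicates. OASL, the helicase DDX60 and the exonuclease ISG20 had log2 changes of -0.06, -0.10 and -0.18 and did not pass. OAS1 had the largest change of the group (-0.76) but only 13 to 38 counts per library and missed the threshold (adjusted p 0.0522). It passed without control replicate 2 (adjusted p 0.0380) and on leaving out BOLA3-L knockdown replicate 1 (0.0221). OAS1, OAS3 and OAS2 lie next to each other on chromosome 12 (112906962 to 113011723 in GRCh38), so neighbours of 1 cluster differed widely in level, with control means of 0.953, 123 and 0.118 CPM.

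The IFIT genes encode proteins that bind viral RNA and block its translation. Of the 4 tested, 1 fell, where 15.6% of all tested genes did. IFIT1, which binds RNA that lacks the methylated cap of host messages, stood at 14.15, 13.7, 13.6 and 12.9 CPM in controls and 12.02, 12.1, 11.7 and 11.6 CPM after knockdown. Every knockdown library was lower (log2 change -0.20, SE 0.0723, adjusted p 0.0474). Leaving out control replicate 1, 2 or 3, or knockdown replicate 2, 3 or 4, ended the call (adjusted p 0.0748 to 0.117; 0.0271 to 0.117 over all alternatives). It was also lost under upper quartile normalization (0.0571) and with no filter on low counts (0.0913). IFIT2, IFIT3 and IFIT5, its neighbours on chromosome 10, had log2 changes of -0.06, 0.04 and -0.09, with control means of 9.32 to 23.03 CPM, and their groups overlapped.

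In the ISG15 system 2 of 6 tested members rose (33.3%) and 1 fell (16.7%), where 15.0% and 15.6% of all tested genes did. ISG15 itself stood at 15.8, 13.3, 17.4 and 15.95 CPM in controls and 13.4, 14.7, 15.45 and 14.99 CPM after knockdown, with the knockdown libraries inside the range of the controls (log2 change -0.09, adjusted p 0.431). USP18, which removes ISG15 from proteins and blocks the interferon receptor subunit IFNAR2, had the largest rise among called members. It stood at 6.43, 6.82, 7.31 and 6.66 CPM in controls and 7.29, 9.16, 10.7 and 9.85 CPM after knockdown (log2 change 0.44, SE 0.112, adjusted p 0.00572). BOLA3-L knockdown replicate 1 overlapped the controls, and without it the log2 change was 0.54 (adjusted p 2.3e-05; 2.3e-05 to 0.0297 over all alternatives). Of the sampled sequence of USP18 19.3% also occurs in other genes.

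HERC6, a ligase of the same family as the ISG15 ligase HERC5, stood at 8.79, 8.999, 7.59 and 7.78 CPM in controls and 11.5, 9.87, 8.95 and 9.70 CPM after knockdown. The rise was 0.27 (SE 0.0988, adjusted p 0.0454) with overlapping groups. Leaving out control replicate 1, 3 or 4, or knockdown replicate 1, 2 or 4, ended the call (adjusted p 0.0573 to 0.135; 0.0326 to 0.135 over all alternatives), as did limma on FPKM with no minimum (0.0675). HERC5, its neighbour on chromosome 4, was at 0.598 CPM in controls and did not pass. UBE2L6, which passes ISG15 to its ligases, stood at 50.6, 50.2, 49.3 and 48.3 CPM in controls and 50.8, 56.6, 54.95 and 54.2 CPM after knockdown. Its groups did not overlap, its log2 change of 0.13 just missed the threshold (adjusted p 0.0520), and it passed in 7 of 17 alternatives, DESeq2 (0.0391) and the fit without BOLA3-L knockdown replicate 1 (0.00206) among them.

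TRIM25, which ubiquitinates the RNA sensor RIG-I and is itself conjugated to ISG15, was the member that fell in this system. It stood at 170, 173, 170 and 169 CPM in controls and 160, 149, 161 and 162 CPM after knockdown. The fall was small (log2 change -0.11, SE 0.0375, adjusted p 0.0359). The call was lost in 10 of 17 alternatives, among them the fits without any 1 control library, the fit without knockdown replicate 2 (adjusted p 0.0635 to 0.138 over these 5) and limma on FPKM (0.106 to 0.108), within 0.00243 to 0.138 over all alternatives.

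The ADP-ribosyltransferases PARP9 and PARP14 lie with DTX3L, the ubiquitin ligase that binds PARP9, within chromosome 3 from 122527924 to 122730840, and PARP9 and DTX3L start head to head. Of the 4 members of this group PARP14 rose, where 15.0% of all tested genes did. PARP14 stood at 30.8, 33.0, 32.1 and 32.5 CPM in controls and 40.2, 36.2, 33.6 and 36.8 CPM after knockdown (log2 change 0.19, SE 0.0589, adjusted p 0.0183). All knockdown libraries were higher, and the call was lost without control replicate 1 (adjusted p 0.0639; 0.00856 to 0.0639 over all alternatives). PARP9 and DTX3L did not pass (log2 changes 0.10 and 0.05; adjusted p 0.197 and 0.581). Both had their highest value in BOLA3-L knockdown replicate 1, 52.5 CPM for PARP9 and 63.7 CPM for DTX3L, and without that library DTX3L changed sign (-0.02). PARP12, on chromosome 7, stood at 57.9 and 56.1 CPM in the mean of the groups and did not pass either.

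IFITM3, which rose, was the one called gene among 4 tested membrane restriction factors, where 15.0% of all tested genes rose. It stood at 627, 645, 633 and 629 CPM in controls and 685, 729, 698 and 725 CPM after knockdown, with no overlap (log2 change 0.16, SE 0.0319, adjusted p 0.000787), and kept its call under all 17 alternatives. An antisense gene of GENCODE v29, AC136475.5, overlaps 21.3% of its exon bases, and the counting is not stated to use strand, so reads of the pair may be mixed. IFITM2 (log2 change 0.15, adjusted p 0.0900) and IFITM1 (0.11), its neighbours on chromosome 11, did not pass. IFITM2 passed with limma on filtered FPKM (lowest adjusted p 0.0431). Of the exon bases of IFITM2 22.7% lie in exons of IFITM1 on the same strand, so reads of these neighbours may also be mixed. Of the sampled sequence of IFITM1 40.6% also occurs in other genes, so its counts are uncertain. The phospholipid scramblase PLSCR1 had log2 change -0.08 and did not pass.

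IFI44 had the largest change of all members. It stood at 11.2, 9.79, 9.498 and 9.51 CPM in controls and 4.72, 3.32, 3.11 and 3.65 CPM after knockdown, from 310 to 347 and 107 to 149 counts per library. The groups lay far apart, and IFI44 fell to 36.98% of control (log2 change -1.44, SE 0.126, adjusted p 1.04e-07). The fall was -1.57 without BOLA3-L knockdown replicate 1, whose value was the highest of the knockdown libraries, and the call was kept under all 17 alternatives. IFI44 is an interferon-induced cytoplasmic protein, and the gene of its relative IFI44L ends at 78646145 on chromosome 1, just before IFI44 begins at 78649789. IFI44L had at most 2 counts in any library, so the fall of IFI44 cannot be set beside that of its neighbour. No sampled window of IFI44 (0 of 65) occurs in another gene.

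IFI6, a mitochondrial protein that restrains cell death, stood at 0.614, 0.379, 0.941 and 0.243 CPM in controls and 0.919, 0.822, 0.871 and 0.470 CPM after knockdown. The groups overlapped at 8 to 31 counts per library, and its log2 change of 0.50 did not pass (adjusted p 0.314). IFI35, which stood at 14.8 ± 1.15 and 13.4 ± 1.53 CPM (SD, n = 4 each), did not pass either (log2 change -0.15). In this group the call of IFI44 was therefore not shared by the other tested members. Whether their changes differ from that of IFI44 was not tested.

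Of the 5 remaining tested effectors 3 fell (60.0%, where 15.6% of all tested genes did). All 3 kept the call under all 17 alternatives. TRIM21, the cytosolic antibody receptor that targets antibody-bound virus for degradation, stood at 21.8, 18.1, 17.45 and 16.1 CPM in controls and 12.7, 12.8, 13.8 and 14.3 CPM after knockdown (log2 change -0.45, SE 0.0870, adjusted p 0.000633). SAMD9, a translation inhibitor against poxviruses, stood at 170.3, 182, 175 and 184 CPM in controls and 148, 134, 139 and 129 CPM after knockdown (-0.37, SE 0.0439, adjusted p 4.05e-06). Its paralog SAMD9L, the adjoining gene on chromosome 7, was near the limit of detection at 0.274 CPM in controls and did not pass.

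SP100, a constituent of PML nuclear bodies, stood at 63.7, 61.9, 62.6 and 63.6 CPM in controls and 52.25, 51.9, 50.5 and 53.8 CPM after knockdown (log2 change -0.27, SE 0.0438, adjusted p 0.000122). In TRIM21, SAMD9 and SP100 alike every knockdown library lay below every control. Of the sampled sequence of SP100 12.4% also occurs in other genes. The 4 libraries of each group gave MX1 means of 1.24 ± 0.231 and 1.16 ± 0.127 CPM (SD, n = 4), on 31 to 49 counts per library. MX1 did not pass (log2 change -0.10, adjusted p 0.758).

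**Figure D3:**
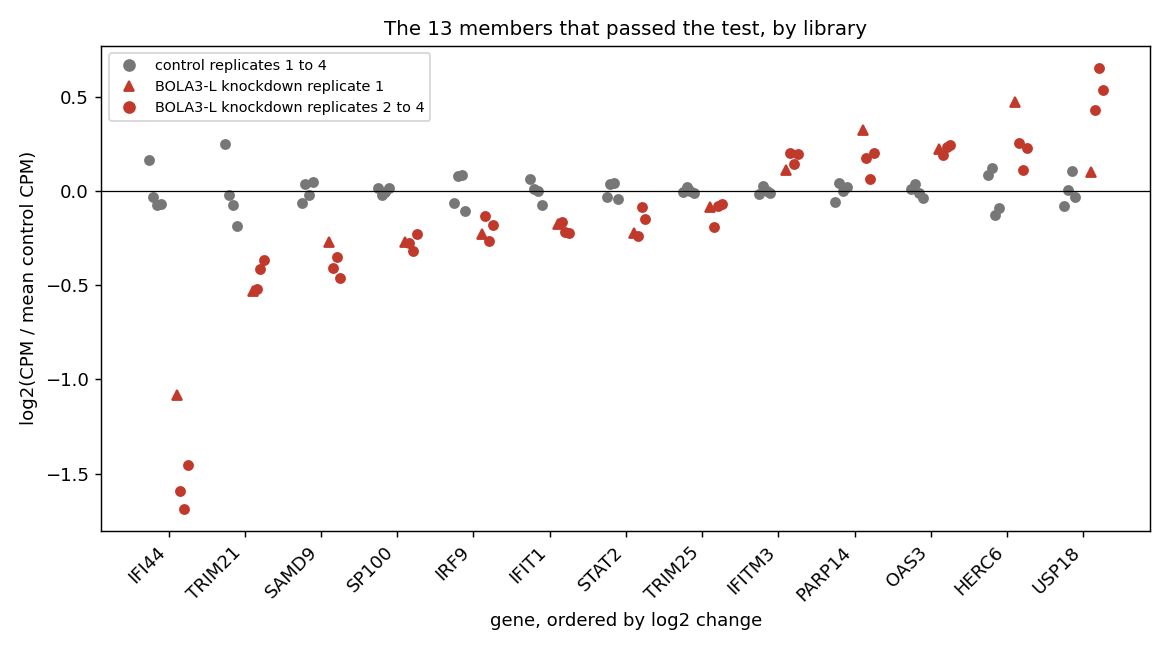
The 13 members that passed the test, as log2 of the CPM of each library over the mean CPM of the 4 controls, ordered by log2 change. Grey points are controls, red triangles BOLA3-L knockdown replicate 1 and red points the other 3 knockdown libraries. IFI44 spreads from -1.08 to -1.69 after knockdown, the groups of HERC6 and USP18 overlap, and replicate 1 is the highest knockdown library in IFI44, SAMD9, PARP14 and HERC6 and the lowest in USP18, IFITM3 and TRIM21.

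The ISRE core was present in promoters of members of every outcome. It was found in 3 of 4 members that rose and have a promoter entry, 3 of 8 that fell, 11 of 21 that did not pass and 3 of 4 that were too low to test. The members that fell without a core in this window were STAT2, IRF9, TRIM25, TRIM21 and SP100. The search used a single RefSeq start per gene and a fixed spacing, so a miss does not exclude an ISRE. OAS1, for example, held GAAACGAAA, with a shorter spacing, and was not counted. The gamma-activated site, searched as TTCNNNGAA, which reads the same on both strands, was found in 9 of 37 member promoters (24.3%) against 1850 of 27305 (6.78%), and overlapped an ISRE core in 2 of them. IRF1 held TTCCCCGAA, beginning 124 bases before its start. A match describes the letters in the window, and no binding was measured.

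The pathway upstream of the members was given by lists of ligands, receptors and kinases, transcription factors, nucleic acid sensors and negative regulators, together 43 tested genes. Of these 7 rose (16.3%) and 6 fell (13.95%), where 15.0% and 15.6% of all tested genes did. No interferon gene could be tested. Of the 22 interferons listed, 8 had a row, and IFNE, an epithelial type I interferon, had 4 to 22 counts per library, while the other 7 had 0 to 3. Of 8 tested receptors and kinases 2 rose, the receptor chains IFNAR2 (27.6 ± 1.51 to 33.5 ± 1.45 CPM, SD, n = 4 each; log2 change 0.28, adjusted p 0.00118) and IL10RB (22.7 ± 0.368 to 26.4 ± 1.07 CPM; 0.22, adjusted p 0.00749). JAK1 fell (124 ± 1.88 to 113 ± 5.19 CPM, SD, n = 4 each; -0.14, adjusted p 0.0141), and its call ended on leaving out control replicate 3 or knockdown replicate 2, and with limma on FPKM (adjusted p 3.07e-05 to 0.0635 over all alternatives). These 3 genes were named after their values were seen. IFNAR2 shares 41.4% of its sampled sequence with other genes, and 38.1% of the exon bases of IL10RB lie in exons of AP000295.1, a gene on the same strand that overlaps both, so their counts cannot be assigned with certainty.

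Of 7 tested transcription factors 3 rose (42.9%, where 15.0% of all tested genes did), all by less than 0.3 on the log2 scale. In edgeR's test 0 fell, where 15.6% of all tested genes did (0 in DESeq2 and limma too, and 0 at an unadjusted p under 0.05). Among 17 tested nucleic acid sensors and adaptors 1 rose (5.88%) and 4 fell (23.5%), where 15.0% and 15.6% of all tested genes did. IFI16, a sensor of DNA, had the largest fall, from 93.2, 97.4, 84.4 and 87.5 CPM in controls to 61.1, 58.2, 55.5 and 63.6 CPM after knockdown (log2 change -0.60, SE 0.0536, adjusted p 1.23e-07). The groups did not overlap. TLR3, the endosomal receptor of double-stranded RNA, rose from 3.55, 2.84, 1.97 and 2.46 CPM to 3.77, 4.34, 3.51 and 4.47 CPM (0.57, SE 0.17, adjusted p 0.0150). Its groups overlapped, and the call was lost without control replicate 3 (adjusted p 0.0643) or 4 (0.0511), within 0.00392 to 0.0643 over all alternatives. The log2 change of TLR3 was 0.21 with limma on log2(FPKM + 1).

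Of 11 tested negative regulators 1 rose and 1 fell (9.09% each, where 15.0% and 15.6% of all tested genes did). On leaving out knockdown replicate 1, 10 pathway genes rose and 10 fell, where 21.2% and 21.5% of all tested genes did. The number that fell was 3 without knockdown replicate 2, 3 without control replicate 3 and 2 or 3 with limma on FPKM. Of all tested genes 12.9% fell without knockdown replicate 2, 12.4% without control replicate 3 and 8.36% to 12.8% with limma. The number that rose was 8 or 9 with limma on FPKM, 3 on leaving out control replicate 3 and 4 on leaving out the first or the fourth control. Of all tested genes 10.8% to 17.3% rose with limma, 11.8% without control replicate 3 and 12.1% and 12.4% without the first and the fourth control. The shares of pathway genes that rose, 16.3%, and that fell, 13.95%, were near the 15.0% and 15.6% of all tested genes, and the median log2 change was -0.00253.

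Among 49 tested further interferon-stimulated genes outside the members 5 rose (10.2%) and 9 fell (18.4%), where 15.0% and 15.6% of all tested genes did. Called or not, 34 of the 49 had a negative log2 change and 15 a positive one (median -0.0455). Of all tested genes 5890 were negative and 5951 positive. GBP1, a guanylate-binding GTPase, stood at 3.07, 2.97, 2.67 and 2.77 CPM in controls and 0.824, 1.13, 1.13 and 0.676 CPM after knockdown. It fell to 32.8% of control (log2 change -1.60, SE 0.194, adjusted p 5.87e-06) on 23 to 95 counts per library, and by 0.59 on log2(FPKM + 1), a scale that shrinks low genes. Its relative GBP2 fell by 1.29 on the log2 scale (adjusted p 0.0128) on 5 to 15 counts per library, and by 0.08 on log2(FPKM + 1) with no minimum, while GBP3, at 26.4 and 25.8 CPM, did not pass (adjusted p 0.763). Of the sampled sequence 5.88% in GBP1 and 15.2% in GBP2 also occurs in other genes.

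PML, the scaffold of the nuclear bodies that contain SP100, stood at 62.2, 64.4, 61.2 and 58.7 CPM in controls and 46.6, 52.2, 50.3 and 50.4 CPM after knockdown (log2 change -0.30, SE 0.0493, adjusted p 0.000132). SLFN5, a Schlafen family protein, stood at 57.4, 62.3, 54.9 and 55.8 CPM in controls and 44.45, 40.7, 42.2 and 41.95 CPM after knockdown (-0.44, SE 0.0520, adjusted p 3.78e-06). In both genes every knockdown library was below every control. C1R, a protease that starts the classical complement cascade, moved the other way, from 31.6, 31.35, 29.5 and 30.02 CPM to 38.9, 42.9, 43.45 and 46.1 CPM (0.49, SE 0.0578, adjusted p 4.71e-06), again with no overlap. Of its sampled sequence 14.5% is shared with other genes.

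Only 5 of the further genes fell on leaving out control replicate 1 or 2, and likewise in limma on filtered log2(FPKM + 1) values. Of all tested genes 12.6%, 11.9% and 12.8% fell there, in that order. The chemokines CXCL10 and CXCL11, which mark a strong interferon response, had 0 to 2 and 0 to 4 counts per library and were not tested, and RSAD2, the antiviral enzyme viperin, stood at 1.96 and 1.44 CPM and did not pass (adjusted p 0.113). These 3 genes were named after their values were seen.

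**Figure D4:**
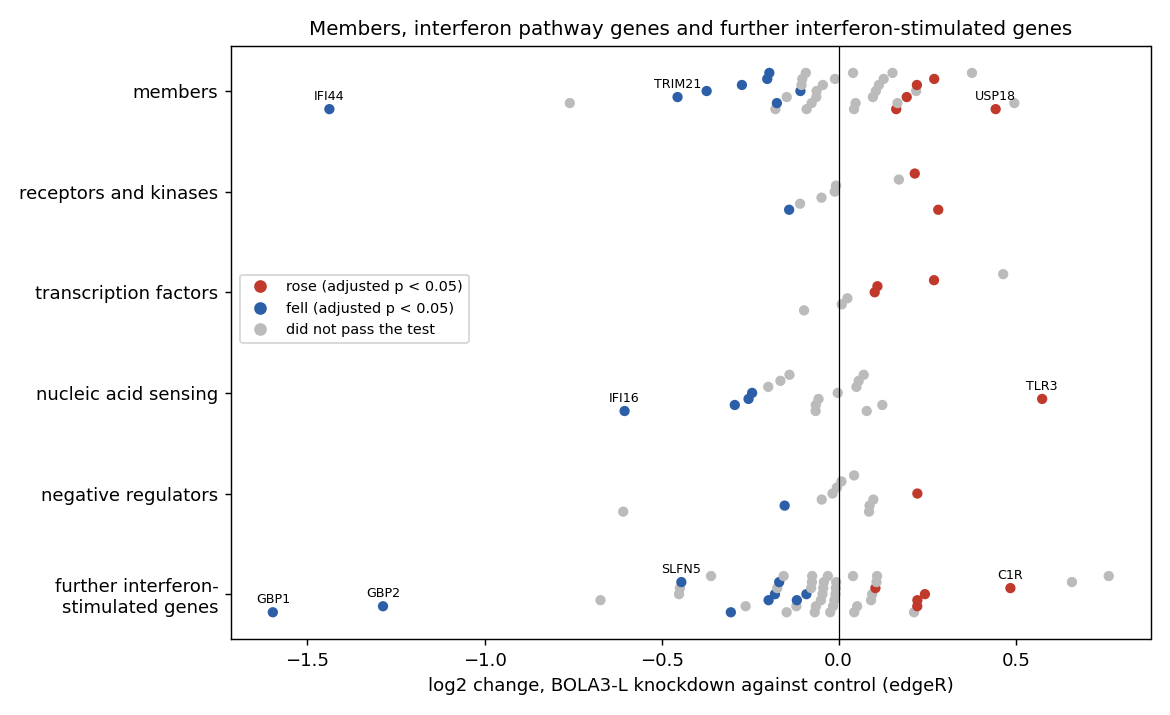
Log2 change after BOLA3-L knockdown of the 37 tested members, of tested pathway genes in 4 lists and of 49 further interferon-stimulated genes, one point per gene, with a small vertical offset for legibility. Red, blue and grey mark genes that rose, that fell and that did not pass edgeR's test, and called genes beyond 0.4 in either direction are named. Most points lie near 0, and GBP1, IFI44 and GBP2 lie below -1.

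Summed over the 42 members with a row, the controls held 2397 to 2437 CPM and the knockdown libraries 2432 to 2469 CPM, with overlap between the groups. IFITM3 and ADAR made up much of this sum. The median over the tested members of log2 CPM against the control mean ran from -0.0105 to 0.0145 in the control libraries and from -0.0290 to 0.0149 in the knockdown libraries. The single highest of these was BOLA3-L knockdown replicate 1, and the other 3 knockdown libraries lay below every control.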

How the data were processed

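Polyadenylated RNA of KYSE150 cells was sequenced as paired-end reads in 4 control and 4 BOLA3-L knockdown libraries. Reads were filtered with fastp, per the series' design text, and the genome build was hg38, per the submitters' processing notes. Aligner, counter and strand use: not given in the sources used here. Raw counts per gene and FPKM values were deposited by the authors, and all 110558 FPKM values above 0 match the deposited count divided by a gene length and the total of its library (tolerance 1e-06). FPKM is therefore not independent of the counts.

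Counts were filtered with filterByExpr and normalized by TMM, and knockdown was tested against control by the quasi-likelihood F-test of edgeR with robust dispersion, adjusted by Benjamini-Hochberg over 11841 genes at 0.05. CPM use TMM library sizes, and the SE is the absolute log2 change over the square root of F. The alternatives were RLE and upper quartile normalization, no filter, a minimum of 1 CPM in 4 libraries, a replicate block, leaving out each library, DESeq2, and limma on log2 FPKM (pseudocount 1 or 0.1, minimum 0.5 FPKM in 4 libraries, or pseudocount 1 with no minimum). Counts were simulated for 11841 genes, 200 of them changed, with the same dispersion in every gene. There edgeR recovered 76%, 90%, 100% and 92% of changes of 1.25, 1.5, 2 and 3-fold. In the data 1777 genes rose and 1853 fell, so these rates need not hold there. Every member with a row in the count table is named. The value in every library is given for members with an adjusted p under 0.05 and for IFI44, IRF1, STAT2, IRF9, ISG15 and IFI6, and further genes are named by an adjusted p under 0.05 with an absolute log2 change of at least 0.3. Values of IFNAR2, IL10RB, JAK1, IFNE, GBP3, RSAD2, CXCL10, CXCL11 and the cell type markers are given outside this rule. The members and lists were chosen with earlier results of these data known.

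Shared sequence is the share of 75-base windows, taken every 25 bases of the longest GENCODE v29 transcript, that occur in transcripts of other genes. Promoters and coordinates are RefSeq's on GRCh38.p14, and in 32 of 37 members the first 30 bases after the start lie in a GENCODE v29 transcript of the gene. The tools were edgeR 4.0.16, DESeq2 1.42.0 and limma 3.58.1 in R 4.3.3, with scipy 1.17.1, pandas 2.3.3, numpy 2.4.6 and matplotlib 3.10.9 in Python 3.11.15.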

Additional observations from a re-analysis of the deposited data

Results flagged for a closer look

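In 10 of 76 groups of 4 libraries (37 tested members and BOLA3, in each condition) 1 library lay far from the other 3, by Dixon's criterion on the gap over the range. Chance gives about 1 in 20. Both PARP9 and DTX3L, which start head to head, were high in BOLA3-L knockdown replicate 1, at 52.5 CPM against 45.2 to 46.2 in the other knockdown libraries for PARP9 and 63.7 against 51.8 to 53.4 CPM for DTX3L. ADAR was high in control replicate 3 (441 CPM against 425 to 426) and low in BOLA3-L knockdown replicate 2 (414 against 429 to 431 CPM). TRIM25 was low in BOLA3-L knockdown replicate 2 (149 CPM against 160 to 162), and its call was lost without that library, as it was without any 1 control library. IFI44 was high in control replicate 1 (11.2 CPM against 9.498 to 9.79), and its call was kept without that library. IFIT3 was low in control replicate 2 (7.74 CPM against 9.73 to 9.97). At lower levels IFITM1 was high in BOLA3-L knockdown replicate 4 (2.41 CPM against 2.04 to 2.06), HERC5 was high in control replicate 3 (0.728 CPM against 0.547 to 0.568) and SAMD9L was low in BOLA3-L knockdown replicate 4 (0.147 CPM against 0.369 to 0.380).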

How the results depend on the processing

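Of the 13 called members 8 kept their call under all 17 alternatives: IFI44, TRIM21, SAMD9, SP100, STAT2, OAS3, USP18 and IFITM3. IRF9, IFIT1, TRIM25, HERC6 and PARP14 lost theirs under at least 1. The number of members that rose was 8 with limma on log2(FPKM + 1) and on log2(FPKM + 0.1) with a minimum (7 fell there), and 3 to 5 when 1 library was left out. The number that fell was 5 with no filter on low counts, 5 with the replicate block and 5 to 9 when 1 library was left out. The shares of all tested genes moved too. With limma and a minimum 17.3% rose and 12.8% fell, and 11.2% fell with no filter and 14.7% with the replicate block. With 1 library left out 11.8% to 21.2% rose and 11.9% to 21.5% fell. The cause was not tested. Same-numbered libraries showed no clear shared deviation (r = -0.0444 to 0.0876 over the 4 pairs, and -0.0701 to 0.0691 between unlike numbers). The labels do not state whether the numbers pair the libraries, and weak correlations cannot decide it. The replicate block called 1656 genes that rose and 1736 that fell, with IRF9, IFIT1 and TRIM25 not called (adjusted p 0.0532, 0.0715 and 0.0590). BOLA3 kept its call throughout (log2 change -1.71 to -1.56). Signs changed in members that were not called: ADAR was 0.00988 with limma on log2(FPKM + 1) with and without a minimum, 0.01002 on log2(FPKM + 0.1). With 1 library left out, ADAR ranged from -0.0162 to 0.00277, IRF1 from -0.00224 to 0.102, IFIT3 from -0.0333 to 0.0894, DTX3L from -0.0231 to 0.0788, IFITM1 from -0.0132 to 0.245 and MX1 from -0.191 to 0.0201. The median change of members lay between -0.06 and -0.00599 over the alternatives. OAS1, HERC5, SAMD9L, MX1, ISG20 and IFI6 had no value under some stricter filters. Depth limits OAS1, IFI6, HERC5, SAMD9L and the 5 members too low to test.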
